A study of Mus musculus with 5 samples.

Results

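The Ebf1 locus was described here as the H3K27ac peaks at and around the mouse gene Ebf1 on chromosome 11. A peak belonged to it when it overlapped the 1 kb on either side of a gene end, or had its summit in the gene body or within 200 kb of an end. By this rule the locus held 78 of the 22948 peaks of the list. The same rule was applied to the 3 other members of the family, Ebf2, Ebf3 and Ebf4. H3K27ac, the acetylation of lysine 27 on histone H3, is found at active promoters and enhancers. It was measured by ChIPmentation, in which antibody-bound chromatin is tagged with sequencing adapters by the Tn5 transposase. The cells were CD45.2+, lineage-negative, Sca1+ and Kit+ bone marrow cells, labelled HSC/MPP, that is haematopoietic stem cells and multipotent progenitors. All libraries, 4 of H3K27ac and 1 of input, carried the genotype Mll3/4 deleted. Mll3 and Mll4 encode histone methyltransferases that act mainly at enhancers. Strain, age, number of animals and the means of deletion are not given in the sources used here, and no library of another genotype was used. The values come from 1 peak list for the 4 libraries together, so they carry no replicate error. No test between samples was possible, and gains or losses on deletion were not measured.

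Ebf1, early B-cell factor 1, is a DNA-binding factor that starts the B-lineage programme in lymphoid progenitors. It acts downstream of the E protein Tcf3, Foxo1 and signals from the interleukin 7 receptor. It switches on Pax5 and the genes of the pre-B-cell receptor, and it is needed for B cells to form. Its relatives have a near-identical DNA-binding domain but are known mainly from other tissues: Ebf2 from brown fat and neurons, Ebf3 from neurons and Ebf4 from the olfactory epithelium.

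The promoter windows of these genes show what lies under the strongest peak and at the relatives without one. Each window runs from 250 bases before a RefSeq start to 50 bases from it on, on the gene's own strand, in GRCm38.p6. RefSeq has 2 such starts for Ebf1, on the plus strand at chr11:44617850-44618149 and at chr11:44619978-44620277. The Ebf3 window is chr7:137314396-137314695 on the minus strand, and the Ebf4 window is chr2:130295689-130295988 on the plus strand. Capitals mark matches to any of the motifs searched.
Ebf1 first start: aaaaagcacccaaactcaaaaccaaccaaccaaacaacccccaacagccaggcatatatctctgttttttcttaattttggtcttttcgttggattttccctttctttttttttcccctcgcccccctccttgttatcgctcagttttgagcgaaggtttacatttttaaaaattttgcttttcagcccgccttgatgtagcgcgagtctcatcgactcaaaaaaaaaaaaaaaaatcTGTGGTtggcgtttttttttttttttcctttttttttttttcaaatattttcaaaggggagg
Ebf1 second start: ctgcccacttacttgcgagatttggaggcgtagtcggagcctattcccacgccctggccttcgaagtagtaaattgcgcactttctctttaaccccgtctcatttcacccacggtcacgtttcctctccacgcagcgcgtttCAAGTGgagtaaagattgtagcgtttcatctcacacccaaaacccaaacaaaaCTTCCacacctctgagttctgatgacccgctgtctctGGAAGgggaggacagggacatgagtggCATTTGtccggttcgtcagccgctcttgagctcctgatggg
Ebf3: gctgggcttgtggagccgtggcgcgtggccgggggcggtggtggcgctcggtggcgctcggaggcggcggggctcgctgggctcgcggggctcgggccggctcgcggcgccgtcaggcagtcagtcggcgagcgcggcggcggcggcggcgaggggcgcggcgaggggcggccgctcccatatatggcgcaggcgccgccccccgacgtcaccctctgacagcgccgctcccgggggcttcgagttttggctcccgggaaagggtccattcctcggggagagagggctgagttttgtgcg
Ebf4: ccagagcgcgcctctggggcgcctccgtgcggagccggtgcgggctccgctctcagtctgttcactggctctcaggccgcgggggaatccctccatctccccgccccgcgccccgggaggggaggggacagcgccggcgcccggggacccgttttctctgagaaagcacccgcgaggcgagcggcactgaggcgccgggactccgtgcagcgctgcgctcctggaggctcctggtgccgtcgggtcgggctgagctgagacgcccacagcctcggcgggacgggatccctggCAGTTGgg
The motifs, searched on both strands, were EBF (TCCC, NN and GGGA in a row), the E-box (CANNTG), Runx (TGTGGT), Ets (GGAAG), PU.1 (GAGGAAG, which contains the Ets letters), Foxo (GTAAACA) and Stat (TTCNNNGAA). The window at the first Ebf1 start held 1 Runx match, which ended 7 bases before the start. The window at the second start held 2 E-boxes and 2 Ets matches. Ebf4 had 1 E-box and Ebf3 no match. Of 21263 promoter windows of protein-coding genes, 14.97% held the Runx letters, 69.0% an E-box and 72.4% the Ets letters. The EBF letters occurred in 0.959% of windows and in none of the 4 printed here. These matches describe the letters only.

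The strongest and widest peak of the locus covered the start of Ebf1. It ran over 10925 bp, chr11:44617652-44628576, with a signal value of 12.4 and a −log10 q of 52.9. The signal value was taken to be the authors' enrichment of H3K27ac over the background, and q is the authors' adjusted p-value. In the whole list this peak ranked 159th by signal value and 18th by width. It began 448 bp before the first start and held both promoter windows in full. The starts lie 2128 bp apart, and the summit fell between them, 1222 bp past the first and 906 bp before the second. The peak was lopsided: the summit lay 1670 bp from its low edge and 9254 bp from its high edge, so most of it stretched into the gene. It made up 11.1% of the sequence covered by peaks in the locus and 28.3% of the summed signal value times width.

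A run of peaks joined this one across the start. A 2187 bp peak at chr11:44615055-44617241, with a signal value of 6.64, ended 859 bp before the first start and 410 bp before the strongest peak. It was the other of the 2 peaks that reached the 1 kb window at the low end of Ebf1. A 2120 bp peak before it, chr11:44612162-44614281, had a signal value of 4.50. With peaks joined across gaps of up to 12 kb, this run became a cluster of 5 peaks from 5.94 kb before the start to 15.7 kb past it. Peaks covered 78.6% of its 21.6 kb. By summed signal value times width it ranked 21st of 13379 such clusters in the list. These include lone peaks, counted as clusters of 1, which all shared rank 4859 by number of peaks. The same 5 peaks ranked 15th with a join of 5 kb and 36th with one of 20 kb. The high end of Ebf1, where the gene stops, had no peak within 1 kb. The last peak in the body ended 6.18 kb before it, and the next began 15.7 kb beyond it.

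**Figure D1:**
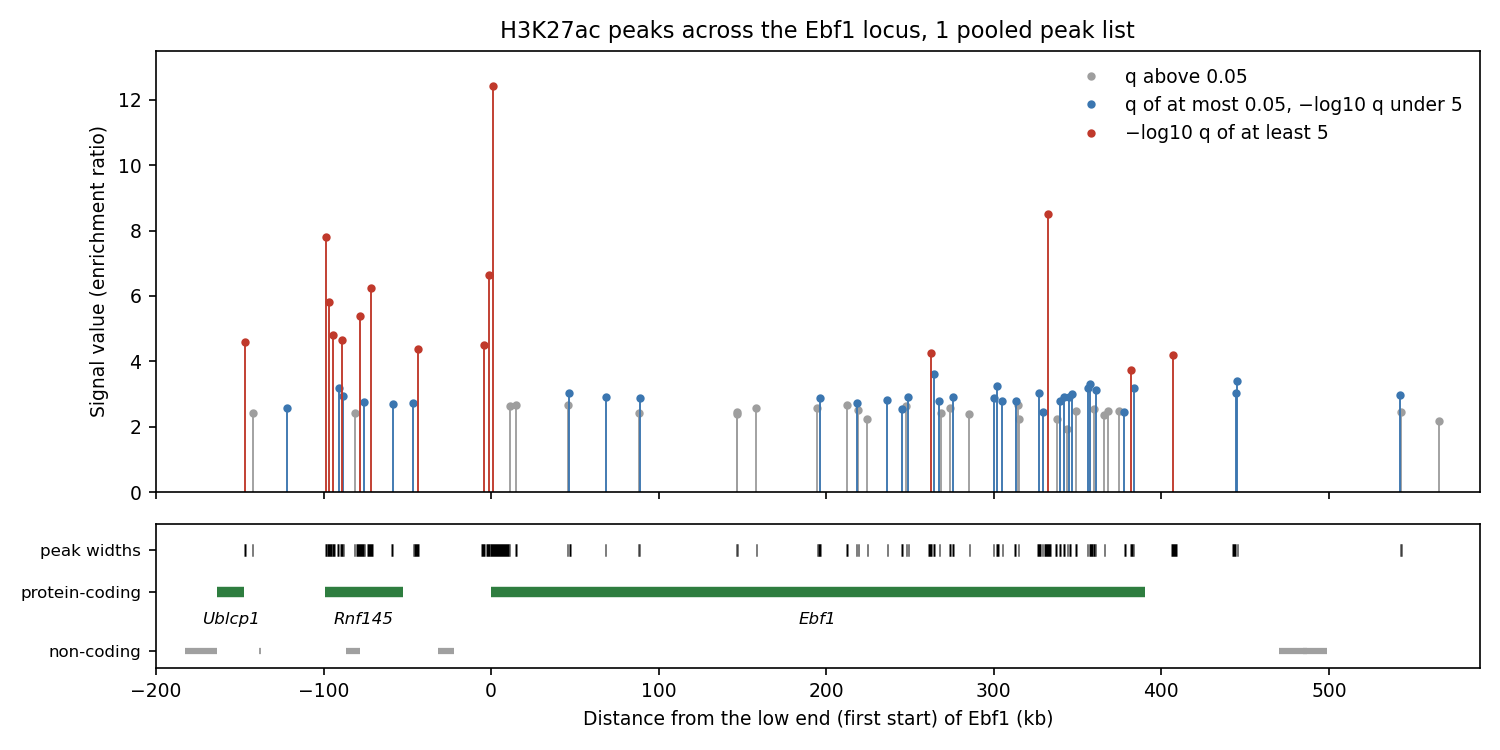
Signal value of each of the 78 peaks of the Ebf1 locus (vertical axis) against the distance of its summit from the first start of Ebf1 in kb (horizontal axis). Colours give the authors' q-value, and the strips below show peak widths and genes. The highest stem, 12.4, stands at the start and the next highest, 8.51, lies 332 kb into the gene.

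The body of Ebf1 is 390 kb long (chr11:44618100-45008096, gene ID 13591) and held 54 summits, or 13.8 per 100 kb. Peaks with their summit in the body covered 60.3 kb. The middle signal value among them was 2.69, with quartiles of 2.48 and 2.90, while all 22948 peaks had a median of 3.27 and quartiles of 2.69 and 4.62. Their median width was 738.5 bp, against 854 bp over all peaks. Over the whole locus it was 791 bp. Among peaks with q-values up to 0.05 the direction turned, with 1147.5 bp in the locus and 1038 bp over all such peaks. Without the peak at the start, the other 53 body peaks had signal values from 1.92 to 8.51 and widths from 259 to 4050 bp. Peaks more than 1 kb from a gene end had a median signal value of 2.97 over the list. Among the other 5 of the 6 genes with the most body summits, the body median was 3.03 at Arid1b, 2.87 at Zmiz1, 2.75 at Foxp1, 2.74 at Msi2 and 2.73 at Bach2.

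Body summits were unevenly placed. The first 195 kb of the body held 12 of the 54 summits, 22.2% (95% Wilson interval 13.2% to 34.9%, for counting error only), and the other 195 kb held 42. In steps of 50 kb from the start, the numbers were 5, 3, 2, 3, 8, 7 and 16, and the shorter last step held 10. The share of sequence under peaks was 28.6% in the first step, 1.94% between 100 and 150 kb, and 36.1% between 300 and 350 kb. The longest stretch of the body without a peak was 57.3 kb, from 89.0 to 146 kb past the start. Neighbouring body summits lay a median of 3.04 kb apart (interquartile range 1.48 to 8.63 kb). In 18 of the 53 pairs of neighbours, the edges were less than 1 kb apart.

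**Figure D2:**
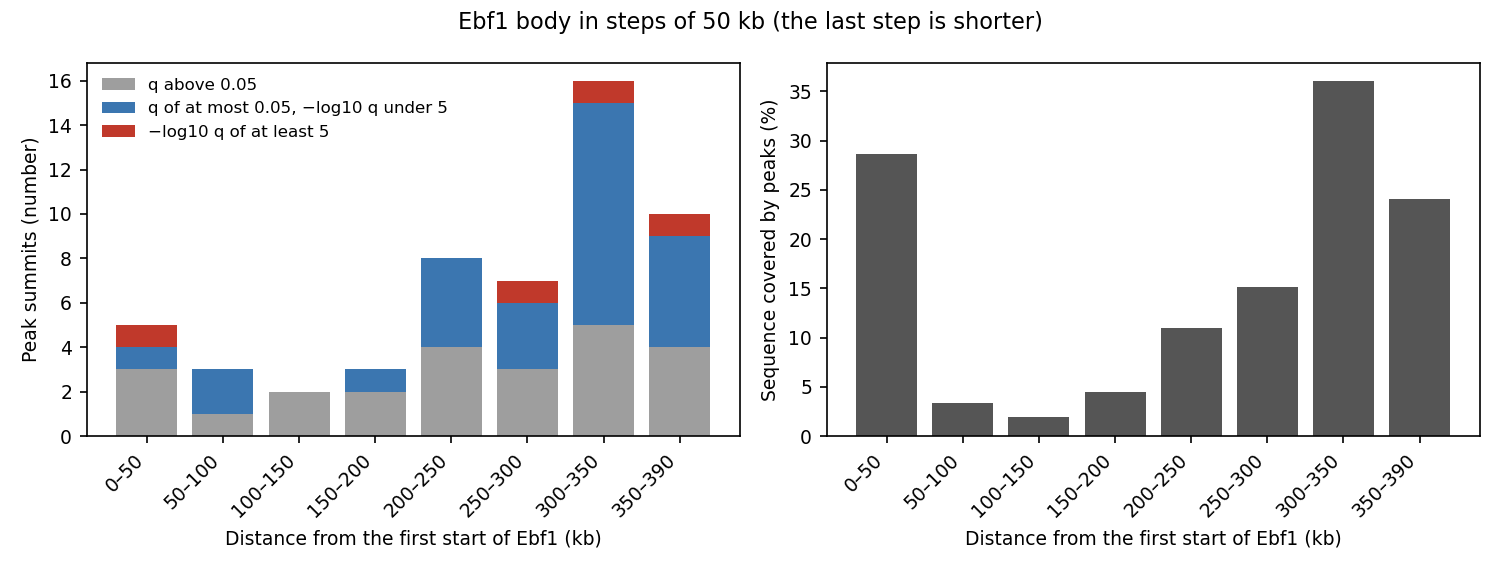
The left panel counts summits, coloured by the authors' q-value, and the right panel gives the percent of sequence covered by peaks, both in 50 kb steps along the Ebf1 body. Counts rise to 16 between 300 and 350 kb, while coverage is high both at the start (28.6%) and there (36.1%).

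The later part of the body was led by 1 peak. It lay at chr11:44948119-44952168, 332 kb past the start and 57.8 kb before the high end, was 4050 bp wide and had a signal value of 8.51, its −log10 q being 26.3. Among the 15480 peaks of the list whose summit lay over 1 kb from any end of a protein-coding gene, it ranked 398th by signal value. Joined across gaps of up to 12 kb, it belonged to a cluster of 26 peaks from 299 to 384 kb past the start. Only 5 of the 13379 clusters in the list held more peaks, and by summed signal value times width this cluster ranked 80th. Its size rests on the join: within 5 kb the peak belonged to a cluster of 10 peaks, ranked 33rd by number of peaks and 190th by the sum, and within 20 kb to one of 43 peaks, ranked 2nd and 46th. A second cluster, of 15 peaks, lay from 212 to 286 kb. It was present only with the 12 kb join: within 5 kb it fell into 6 clusters, and within 20 kb it was part of the cluster of 43 peaks. The strongest of the 15 peaks, chr11:44878865-44881309, had a signal value of 4.25. One further body peak, chr11:44999145-45001185, which lay 8.07 kb before the high end, had −log10 q of at least 5, at a signal value of 3.74. The gene table gives no exons, so these peaks are placed inside the gene but not in an exon or intron.

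Many body peaks were weakly supported. A q-value above 0.05 was attached to 24 of the 54, 44.4% (95% Wilson interval 32.0% to 57.6%, for counting error only). The share was 21.2% over all peaks and 27.8% over peaks more than 1 kb from a gene end. Neighbouring peaks of 1 pooled list are not independent, so the interval is no test against these shares. Only 4 of the 54 body peaks, 7.41%, had −log10 q of at least 5, against 36.1% of all peaks and 25.6% of those more than 1 kb from a gene end. A signal value of at least 4 was reached by 3 of the 54, 5.56%, against 33.9% and 23.4%. The 4 with the lowest q-values were the peak at the start and those 263, 332 and 382 kb past it. The p-values of the weak peaks took few values: 11 body peaks shared −log10 p of 3.51, 10 shared 4.59 and 8 shared 3.01. Peaks that share a value cannot be ranked by it. With 4 peaks left at −log10 q of at least 5, the count in the body of Ebf1 ranked 52nd among genes instead of 4th. Genes tied at that count were not counted.

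Across the 78 peaks, stronger peaks tended to be wider. Spearman's rho between signal value and width was 0.65, and it was 0.67 over all peaks. The points share the same pooled libraries and the same background, and no test was made.

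The flank before Ebf1 held 18 peaks, whose median signal value was 4.44, higher than the 2.69 of the body. Of these, 11 had their summit inside Rnf145, a gene for a RING-finger ubiquitin ligase from 99.3 to 52.6 kb before the start of Ebf1. Their strongest, chr11:44519197-44520216, lay at the low end of Rnf145 with a signal value of 7.81. The widest, chr11:44537274-44542135, was 4862 bp wide, lay 78.4 kb before the start of Ebf1 and had a signal value of 5.39. It also reached an end of the non-coding gene Gm51891, which lies 86.7 to 78.2 kb before Ebf1 and held 2 summits. Further Rnf145 peaks had signal values of 6.24 (chr11:44543837-44547740), 5.82 (chr11:44520385-44522916), 4.82 (chr11:44523074-44525222) and 4.65 (chr11:44527784-44529586). The other 5 had signal values of 2.41 to 3.18. Rnf145 thus had 23.5 summits per 100 kb, and nothing in the list assigns them to Rnf145 or to Ebf1.

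Of the other 7 peaks before Ebf1, 1 lay at an end of Ublcp1, a gene for a phosphatase of the proteasome (chr11:44470618-44471928, signal value 4.59). Another 3, lying 142, 122 and 46.4 kb before the start, had signal values of 2.41, 2.57 and 2.72. Between Rnf145 and Ebf1, a peak 43.5 kb before the start had a signal value of 4.39. It was followed by 37.4 kb without a peak, in which the non-coding genes 4930597A21Rik and Gm39815 lie. The 2 peaks within 5 kb of the start, described above, ended this stretch. The outermost peak on this side lay 147 kb before the start, and the first one beyond the limit of 200 kb was 703 kb away, with a signal value of 3.79.

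The flank after Ebf1 was sparser, with 6 peaks and a median signal value of 3.00. The strongest, chr11:45023813-45027618, was 3806 bp wide with a signal value of 4.19, and its summit lay 17.1 kb past the high end. A pair of peaks 54.4 and 55.2 kb past the end had signal values of 3.03 and 3.39. After them came 96.6 kb without a peak, the longest such stretch of the locus, which spans the non-coding genes Gm51859 and Gm12159. The other 3 peaks had signal values of 2.17 to 2.97, and 2 of the 6 peaks had q-values above 0.05. The last peak inside the limit lay 176 kb past the end with a signal value of 2.17, and the first outside it at 207 kb with 3.30.

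Ebf2, Ebf3 and Ebf4 had no peak within 1 kb of either end and no summit in the body. A peak at an end was present in 36.2% of the 21887 protein-coding genes, and a summit in the body in 38.0%. Long genes without a peak were common: 42.8% of the 2429 genes of at least 100 kb, the size class of Ebf2 (198 kb) and Ebf3 (129 kb), had no summit in the body and 57.2% had at least 1. In the class from 50 to 100 kb, which holds Ebf4 (75.4 kb), 44.3% had no summit in the body. No RNA was measured, so whether these relatives were transcribed is not known from these data.

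**Figure D3:**
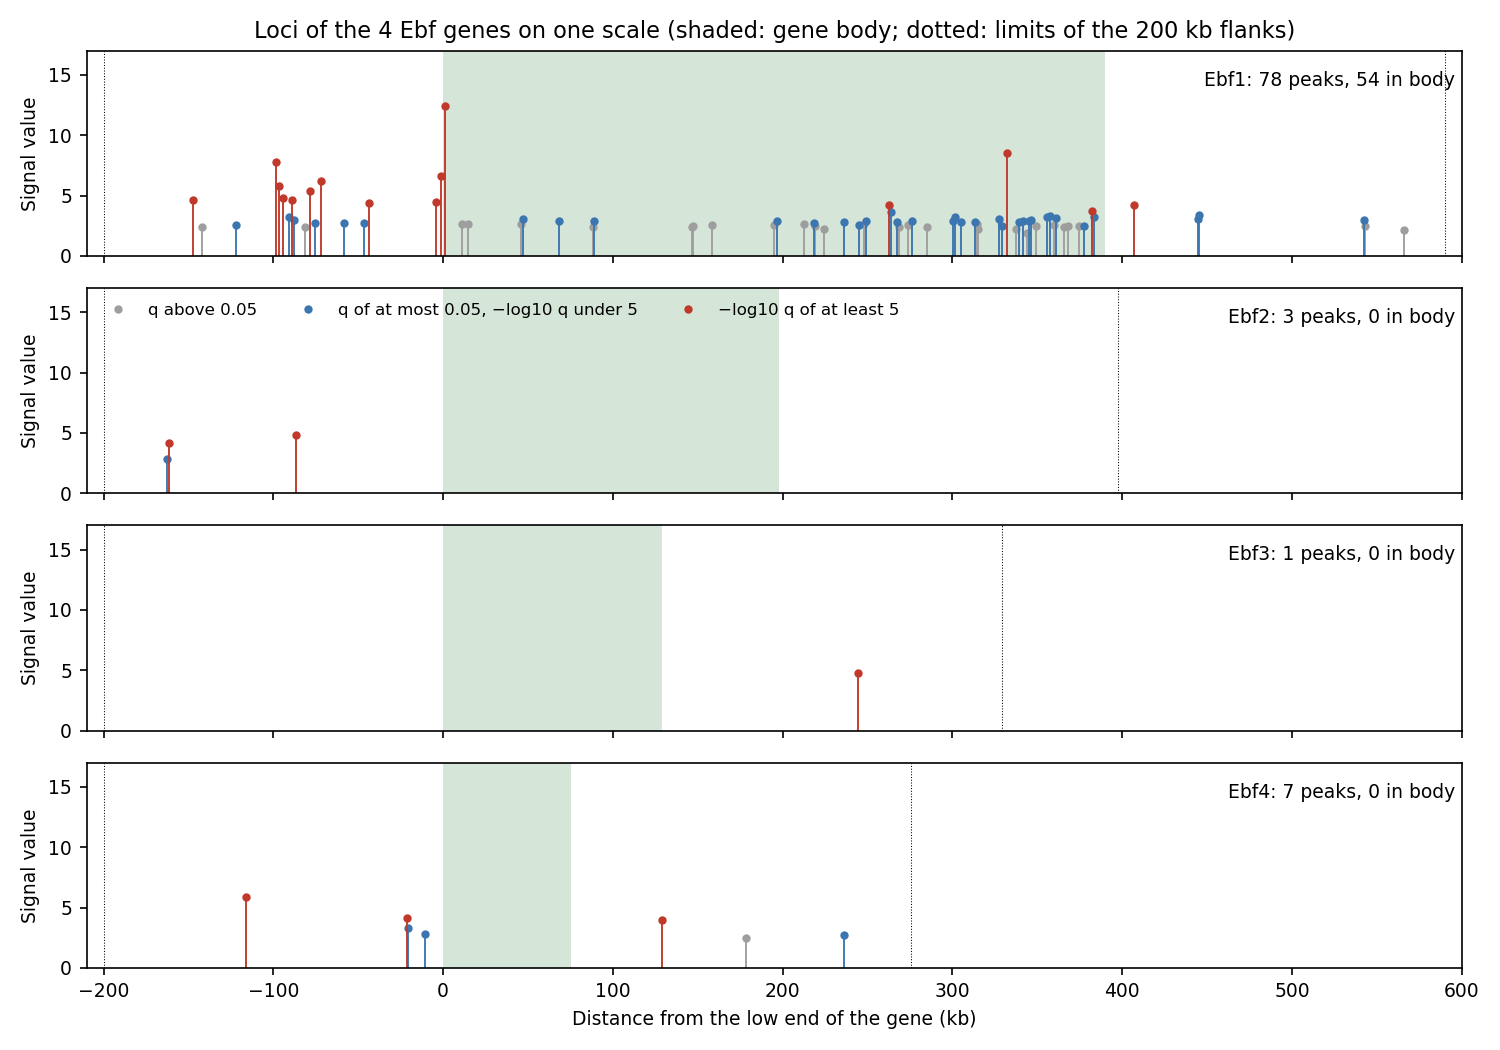
Peaks of the 4 Ebf loci on shared axes: signal value against distance from the low end of each gene in kb, with the gene body shaded and the limits of the 200 kb flanks dotted. Ebf1 has 54 peaks in its body, and the shaded bodies of Ebf2, Ebf3 and Ebf4 hold 0.

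The peaks in the flanks of the relatives lay mostly at other genes. Ebf2, on chromosome 14 (67233292 to 67430952), had 3 peaks. A pair of these lay at Ppp2r2a, a phosphatase subunit gene, and the third, chr14:67146247-67147528, lay 86.6 kb before the low end of Ebf2 and outside protein-coding genes, with a signal value of 4.80. Ebf3, on chromosome 7 (137193671 to 137322805), had 1 peak, at an end of Glrx3, 115 kb past the high end of Ebf3, also with a signal value of 4.80. Ebf4, on chromosome 2 (130295126 to 130370482), had 7, with signal values of 2.48 to 5.84. Of these, 5 lay within 1 kb of an end of Snrpb, Nop56, Idh3b or Vps16, and the remaining pair inside Ptpra. The peak nearest to Ebf4 lay 10.8 kb before its low end, at Idh3b. In all, 83.9% of protein-coding genes had a summit in the body or within 200 kb, so a peak in these flanks is no mark of the Ebf genes.

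The promoter windows differed in base composition. The windows of Ebf1 held 9 and 17 CpG dinucleotides with 36.7% and 53.0% G and C bases. Those of Ebf3 and Ebf4 held 46 and 35 CpG with 77.0% and 74.3%. The median over all windows was 13 CpG and 56.3%. A peak overlapped 25.7% of all windows. Of windows with at most 9 CpG, as at the first Ebf1 start, a peak overlapped 8.29%, and of the 447 windows with at least 46 CpG, as at Ebf3, 31.1%. Both Ebf1 windows were thus overlapped by a peak at lower CpG content than those of Ebf3 and Ebf4, which were not. The RefSeq start of Ebf3 lies 8.36 kb inside the high end of the gene, so its window is apart from the end windows used above.

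**Figure D4:**
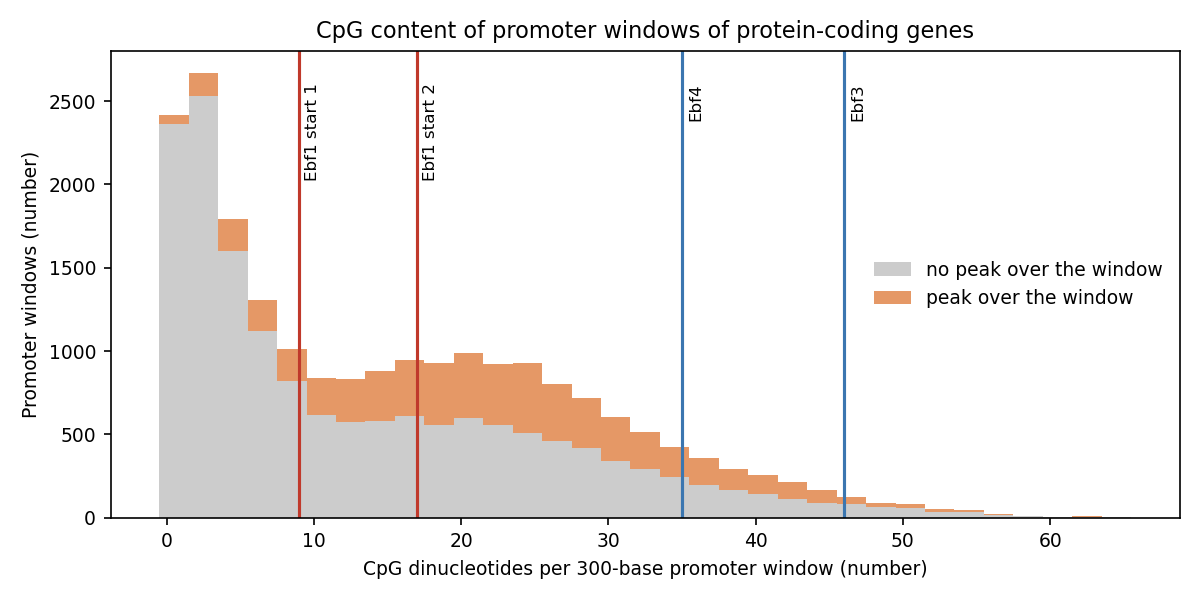
Number of promoter windows of protein-coding genes (vertical axis) by CpG count per 300-base window (horizontal axis), split by whether a peak overlaps the window. Lines mark the Ebf1 windows at 9 and 17 CpG, under a peak, and those of Ebf4 at 35 and Ebf3 at 46, not under one.

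By number of summits in the body, Ebf1 ranked 4th of all protein-coding genes, and 0.0183% of these genes had at least as many. Among peaks with q-values up to 0.05, it ranked 5th. The rank, 1 plus the number of genes with more, was lower among stronger peaks, where ties were not counted. Ebf1 was 52nd by body peaks with −log10 q of at least 5 and 77th by those with a signal value of at least 4. Of the former it held 4, against 11 at Arid1b, 12 at Foxp1, 11 at Zmiz1, 5 at Msi2 and 2 at Bach2. The genes with more were Arid1b, a subunit gene of a chromatin remodelling complex, with 69, Foxp1, a forkhead factor gene, with 66, and Zmiz1, a transcriptional coregulator gene, with 56. Next below Ebf1 were Bach2, a repressor gene of lymphoid cells, with 52, and Msi2, an RNA-binding protein gene, with 44. Long genes have more room for peaks. Per 100 kb, among genes of at least 100 kb, Ebf1 ranked 17th with 13.8, against a median of 0.482. Zmiz1 had 26.8 summits per 100 kb, Arid1b 19.5, Bach2 14.96, Msi2 11.6 and Foxp1 11.0. Of these 6 genes, Ebf1 had the strongest single body peak: 12.4, at its start, against 6.91 to 8.94 in the others. Without the peak at the start, the strongest in the Ebf1 body was 8.51. That is below the 8.94 of Foxp1, from which no peak was left out. Its share of body peaks with q-values above 0.05, 44.4%, lay between 19.6% at Zmiz1 and 45.5% at Foxp1.

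**Figure D5:**
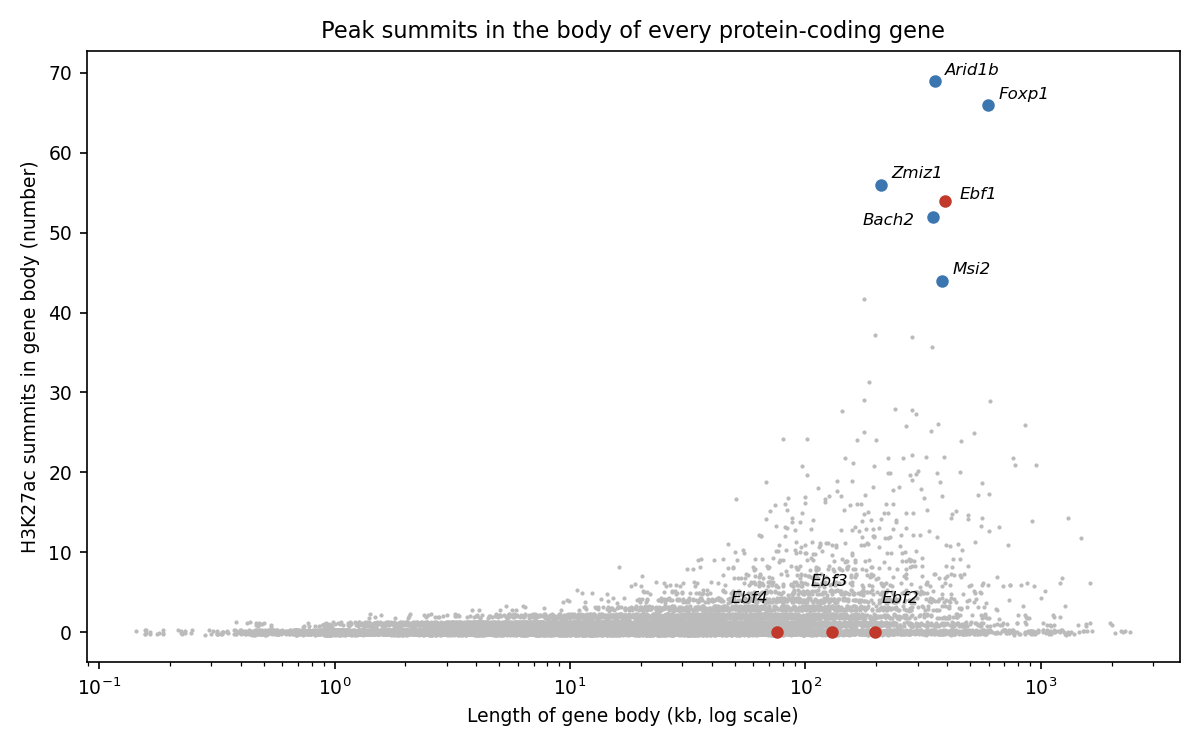
H3K27ac summits in the body (vertical axis, shifted by up to 0.3 at random so that points do not hide each other) against body length in kb on a log scale, 1 point per protein-coding gene. Ebf1 stands at 54 summits beside Bach2 at 52, and Ebf2, Ebf3 and Ebf4 at 0.

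The genes that act with Ebf1 were read from lists chosen with earlier results of these data known. Of 15 factors upstream of or beside Ebf1, 13 had a peak at an end, against 36.2% of all genes. Of these 13, Stat5a and Stat5b were counted from 1 shared peak with a signal value of 2.45. The strongest were at Foxo1 (signal value 12.4), which acts with Ebf1 in early B-cell development, Il7r (11.2), the interleukin 7 receptor chain, and Ikzf1 and Runx1 (both 10.1), transcription factors of lymphoid and blood cells. Of 14 targets of Ebf1, 12 had such a peak, led by Blnk (13.6), a signalling adaptor of the pre-B-cell receptor, Pou2af1 (11.3), a B-cell coactivator, and Rag1 (9.31), of the recombinase. Pax5, which stands in both lists, had a signal value of 8.45 at an end and 31 summits in its body. Of 5 genes that counter Ebf1 or the E proteins, 2 had a peak at an end: Zfp521 (10.0), a zinc finger inhibitor of Ebf1, and Id3 (6.24), an inhibitor of E proteins. Among genes with a peak at an end, the median of the strongest signal value was 6.58 for the upstream list, 7.39 for the targets, 8.14 for the 2 genes that counter Ebf1 or the E proteins and 4.71 for all genes. It was 8.71 for the 4 markers of the sorted population with a peak named next, of which Flt3 also stands in the upstream list and Ptprc marks blood cells in general.

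Markers of the sorted cells were read in the same way. Of 9 genes chosen as markers of these cells, 4 had a peak at an end (Kit, Ptprc, Flt3 and Meis1), a share near the 36.2% of all genes, and Ly6a, which encodes Sca1, Cd34, Hlf, Mecom and Procr had none. The list of lineage-positive markers is given only in part, so it does not show whether such cells were present. Its members Ms4a1, Cd3e, Cd4, Itgam, Ly6g and Klrb1c had no peak at an end, as was the case for most protein-coding genes. The part of B-lineage cells in the Ebf1 peaks was not tested. In bulk chromatin, more cells with the mark and more of the mark per cell cannot be told apart. Where no peak is given, none passed the calling by the authors, and H3K27ac below that limit may still be present.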

How the data were processed

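Per the submitters' processing notes, BWA, MACS2 and the build mm10 (GRCm38) were used, with versions and settings not given in the sources used here. The authors deposited 1 peak list in the narrowPeak layout for 4 H3K27ac libraries over 1 input. They labelled it an overlap, optimal peak list, and how that filter worked is not given. Column 7, the signal value, was taken to be an enrichment ratio computed by the authors, the usual content of this layout. The authors also gave −log10 p and −log10 q per peak, and a score that was not used. Single-library values and read depth are unknown, so no spread between replicates could be given. Coordinates are 1-based. Genes came from RefSeq GRCm38.p6, and promoter windows from its promoter table, which had all Ebf genes but Ebf2. Counts, medians and joins were computed in Python 3.11.15 with pandas 2.3.3, numpy 2.4.6 and scipy 1.17.1 (Wilson intervals), and the counting was tested on simulated data. The genes named were the Ebf genes, their coding neighbours within 200 kb, the 5 genes with the most body summits and the 2 next to Ebf1 on either side, and the 3 strongest of each list; fuller values were given for the 10 strongest peaks, the widest and those at an end. Other peaks, flank genes and marker genes named were picked with their values in view. Of the lists, 2 members are not reported here and were left out of the counts. The members and lists were chosen with earlier results of these data known. Alternatives were stricter lists, other flank sizes, end windows, joins and merges. A planned comparison of the proteins was not run.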

Additional observations from a re-analysis of the deposited data

How the results depend on the processing

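Of 57 recomputed values, 25 stayed within 1.5 times the value reported (for the share of summits, within its interval) and 32 moved. The share of body summits in the first 195 kb, 22.2%, was 13.3% (4 of 30) at q-values up to 0.05. It rested on 1 of 4 and 1 of 3 summits in the stricter lists, and it counts as unmoved only through its wide interval. At q-values up to 0.05, the Ebf1 locus held 50 peaks and the body 30. With −log10 q of at least 5, the locus held 15, the body 4, the flank before the gene 10 and the flank after it 1, covering 47.6 kb in place of 98.3 kb. At signal values from 4 up, these numbers were 14, 3, 10 and 1, covering 45.5 kb. The median signal value of the locus was then 4.82 and 5.10, and the median width 2410 and 2427.5 bp. Against all peaks under the same thresholds, the locus medians stayed lower in signal value (5.32 and 5.45 for all peaks). In width they were lower in the deposited list (791 against 854 bp) and higher in all 3 stricter lists (at q-values up to 0.05, 1147.5 against 1038 bp; under the other thresholds, 1545 and 1568 bp for all peaks). Joining peaks within 1 kb left 48 regions in the locus. The rank of Ebf1 by body summits was 5 at q-values up to 0.05 and 17 per 100 kb. It was 52 at −log10 q from 5 up and 77 at signal values from 4 up, with ties not counted. Clusters numbered 28 with a join of 5 kb, in place of 15, and 9 and 4 of these were lone peaks. At Ebf4, 3 peaks reached a −log10 q of 5 and 2 a signal value of 4. With flanks of 50, 100 and 500 kb, Ebf2 had 0, 1 and 12 peaks, Ebf3 0, 0 and 4, and Ebf4 3, 4 and 12. The end windows of all 4 genes gave the same counts at 2.5 kb. Apart from what a threshold or window removes by construction, the cause was not tested. No paired analysis was possible because peaks carry values for the pooled libraries only, and for that reason no library could be left out. The depth is unknown, so which weak peaks deeper libraries would keep was not measured.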
